A study of Rattus norvegicus with 8 samples.

Results

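Collagen chains were examined in spinal motoneurons of the rat at 2 ages. Every probe set whose only annotated symbol is Col, a number, the letter a and a number was taken, which gave 58 of 31042 probe sets and 41 of 14217 named genes. The arrays were Affymetrix RAE230 2.0, and the RNA came from motoneurons of the lumbar cord of Wistar albino rats, the large cells that drive muscle, cut out by laser from sections stained with cresyl violet. One group was taken at postnatal day 1 (P1), while axons are being myelinated, and the other at postnatal day 21 (P21), after myelination. Each age had 4 arrays, each from 1500 to 2000 cells of a pool of 4 rats, and animals of 4 litters were split between the ages. The labels name no treatment or altered gene in either group. The deposited value of a probe set is a linear intensity, and changes are log2 ratios, P21 to P1, on the log2(intensity + 16) scale, written ± the standard error. Levels are mean intensity ± SD with n = 4 arrays per age, and the values of single arrays are listed in the order of replicates 1 to 4.

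Collagens are proteins of the extracellular matrix in which 3 chains wind into a triple helix. Fibrillar chains assemble into the cables of connective tissue, type IV chains form the meshwork of basement membranes, and the other chains attach to fibrils, form networks or span the cell membrane. Healthy nervous tissue holds little fibrillar collagen, which lies mainly in the meninges, vessel walls and nerve sheaths, whereas basement membranes wrap its vessels and surface, and some membrane-spanning chains are made by neurons.

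Of the 41 chains, 30 had a probe set that exceeded the 40th percentile of an array (the filter level, 221 to 287) in 4 or more of the 8 hybridisations. These chains were tested, each by its passing probe set of highest mean log2 value. By limma's test with Benjamini-Hochberg adjustment over all 19155 probe sets, 15 of the 30 chains passed an adjusted p of 0.05, 9 higher and 6 lower at P21. Over all 10961 genes tested in the same way, 39.4% passed, 22.0% higher and 17.4% lower. The corresponding shares of the chains were 50.0%, 30.0% and 20.0%, so a change between the ages was common in chains and in genes at large. Counted by probe set, 39 passed the filter and 20 of them passed the test, 13 higher and 7 lower, against 38.3% of all probe sets, 20.8% higher and 17.4% lower. The intensities of the ages did not overlap in 11 chains, or 36.7%, against 40.1% of all genes. The median change was 0.34 over the tested chains and 0.05 over all genes. Col26a1 passed the filter through P1 alone and 0 chains through P21 alone. The other 11 chains, too dim to test, were Col4a4, Col4a6, Col6a2, Col6a5, Col6a6, Col7a1, Col8a1, Col9a1, Col10a1, Col17a1 and Col23a1.

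P21 replicate 4 stood apart in genes of cartilage and bone. Among all probe sets, 25 were at least 4-fold above every other array on P21 replicate 4, of which 4 were collagen probe sets, and 0 collagen probe sets stood out in this way on any other array. The 4 belonged to Col2a1, Col9a1, Col10a1 and Col11a1, which are chains of cartilage. Ibsp, bone sialoprotein, read 138, 46.5, 46.5 and 113 at P1 and 220.0, 67.7, 59.3 and 2385 at P21, and Bglap, osteocalcin, read 34.2, 25.9, 1.75 and 13.0 at P1 and 419, 58.9, 23.9 and 3138 at P21. Of 19 cartilage and bone genes on the array, a list chosen after the values were seen, 13 read highest on P21 replicate 4. The summed intensity of the 19 was 26181 there, 8611 to 10988 on the other P21 arrays and 4773 to 6026 on the P1 arrays. Spp1, a member of this list, read 603 to 1136 at P1 and 3361 to 3696 at P21. The sums of the ages thus differ in part through Spp1, which was high on every P21 array. P21 replicate 3 stood apart in liver genes such as Alb, with 25 probe sets of this kind of which 0 were collagens. Without that array 14 of 30 chains passed, 9 higher and 5 lower, beside 6780 of 19155 probe sets, 3443 higher and 3337 lower. The part of the skeletal and liver genes in the collagen results was not tested, and each result below is given with and without P21 replicate 4 where it matters.

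Without P21 replicate 4, 11 chains passed as higher and 6 as lower, or 36.7% and 20.0%, against 19.0% and 16.4% of all genes (35.4% in either direction). All 9 rises and all 6 falls seen with 8 arrays were among them, and the rises added were Col4a5 and Col11a2. The median chain change was then 0.27, and that of all genes 0.03.

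**Figure D1:**
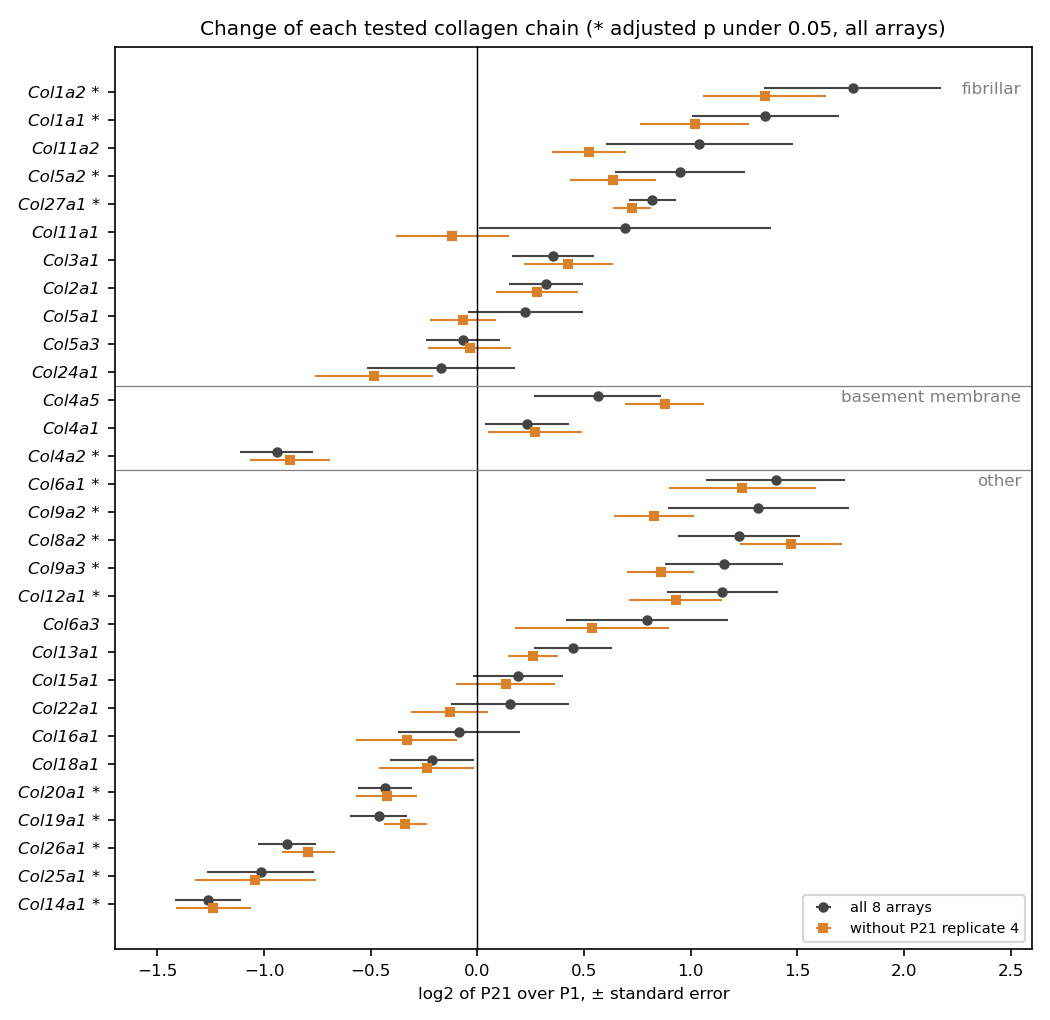
Change of the 30 tested chains, as log2 of P21 over P1 with its standard error, for all 8 arrays (circles) and without P21 replicate 4 (squares), grouped into fibrillar, basement membrane and other chains. Of these probe sets, that of Col1a2 had the largest rise (1.76, or 1.35 without that array) and that of Col14a1 the largest fall (-1.26), while Col11a1 moved from 0.69 to -0.12.

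All 11 fibrillar chains on the array were tested. Of these 4 rose (36.4%), 0 fell and 7 failed to pass, where over all genes 22.0% rose and 17.4% fell. Their median was 0.69, or 0.43 without P21 replicate 4, against 0.05 and 0.03 over all genes. The chains that rose were Col1a1, Col1a2, Col5a2 and Col27a1.

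Col1a1 and Col1a2 encode the chains of type I collagen, the main collagen of skin, bone and meninges. Col1a1 read 1562, 1244, 1826 and 2259 at P1 and 4141, 4154, 2336 and 8626 at P21. All P21 arrays lay above all P1 arrays, and P21 replicate 4 read more than any other. The change was 1.35 ± 0.35 (adjusted p = 0.0124), or 1.02 ± 0.25 without P21 replicate 4. Col1a2 read 1043, 671, 1113 and 1536 at P1 and 3304, 3150.4, 1868 and 8464 at P21, again with no overlap and with the peak on P21 replicate 4. It rose by 1.76 ± 0.41 (3.39-fold, adjusted p = 0.00811), or by 1.35 ± 0.29 without that array. A second probe set of each gene rose too, by 1.06 and 2.05. Within P21, replicate 3 was the dimmest array for both genes.

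The start of Col1a2 is shown since its gene had the largest rise among the probe sets that stand for the chains. The window covers 250 bases before and 50 after the start in RefSeq, build GRCr8, chr4:33518307-33518606, plus strand. Capitals mark a CCAAT motif, read here on the other strand as ATTGG, and a TATAAA motif.
Col1a2: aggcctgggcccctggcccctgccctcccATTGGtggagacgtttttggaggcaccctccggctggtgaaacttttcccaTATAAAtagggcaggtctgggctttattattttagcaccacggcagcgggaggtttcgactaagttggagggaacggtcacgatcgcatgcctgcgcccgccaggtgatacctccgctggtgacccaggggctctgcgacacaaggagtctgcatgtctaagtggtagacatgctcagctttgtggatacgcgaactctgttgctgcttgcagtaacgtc
Both motifs and GGGCGG were searched on both strands in the first listed window of each gene. TATAAA was found in 4 of the 32 collagen windows and in 14.3% of all 27457, CCAAT in 9 and in 37.7%, and GGGCGG in 18 and in 34.9%. The windows with TATAAA were those of Col1a2, Col10a1, Col13a1 and Col17a1. A match is a description of the letters and not a site of binding.

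Col5a2 encodes a chain of type V collagen, which is laid down inside type I fibrils and regulates their width. Its intensities were 774, 754, 948 and 1272 at P1 and 1598, 1596, 1154 and 3430.2 at P21. The ages overlapped, since P1 replicate 4 read more than P21 replicate 3, and P21 replicate 4 was again the brightest. It rose by 0.95 ± 0.31 (adjusted p = 0.0344), and by 0.64 ± 0.20 without P21 replicate 4 (adjusted p = 0.0400). That call was lost when P1 replicate 1, 2 or 3 (adjusted p = 0.0805, 0.0762 and 0.0619) or P21 replicate 1 or 2 (0.0548 and 0.0588) was left out. Its other probe set rose by 1.17 ± 0.39. Col5a1, the partner chain, did not pass on either of its probe sets (0.23 ± 0.27 and 0.73 ± 0.39), and its adjusted p on the dimmer of them was 0.0366 with the replicate number as a block. Without P21 replicate 4 the brighter gave -0.07. Col5a3 had a change of -0.07 ± 0.17.

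Col3a1, the type III chain of elastic tissues and vessel walls, did not pass. It read 2310.5, 2180.3, 3353 and 3696 at P1 and 3598, 4532, 3328 and 3098 at P21. The ages overlapped, and P21 replicate 4 was the lowest of the P21 arrays rather than the highest. The change was 0.36 ± 0.19 (adjusted p = 0.179), and its difference from the changes of type I chains was not tested. Col3a1 and Col5a2 are neighbours on chromosome 9 in GRCr8, with 38189 bases and no other gene start between them.

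Col27a1, a minor fibrillar chain known from cartilage, had the smallest standard error of the fibrillar rises. It read 246, 238, 252 and 262 at P1 and 424, 413, 429 and 555 at P21. The P1 arrays lay close together, 2 of them above the filter level, and every P21 array lay above them. The change was 0.82 ± 0.11 (adjusted p = 0.000320), or 0.72 ± 0.09 without P21 replicate 4 (adjusted p = 0.000410). Col24a1, its closest relative in structure, did not pass (-0.17 ± 0.35).

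The fibril chains of cartilage are Col2a1, Col11a1 and Col11a2, and 5 of their 7 probe sets read highest on P21 replicate 4. The exceptions were the tested probe set of Col2a1 and a dim probe set of Col11a1, which read at most 52.5. Col2a1 was tested by a probe set that read 675, 652, 435 and 466 at P1 and 783, 695, 544 and 754 at P21 and did not pass (0.32 ± 0.17). Another probe set of Col2a1 read 326, 275, 214 and 176 at P1 and 901, 290.4, 719 and 5151 at P21, with P21 replicate 4 at 5.63 times the next array (ratio of intensity + 16). It passed at 1.98 ± 0.70 (adjusted p = 0.0488), at 1.20 ± 0.36 without that array (adjusted p = 0.0321), and missed with the replicate block (adjusted p = 0.0563). Col11a1 read 307, 344, 210.0 and 322 at P1 and 386, 289, 169 and 2659.8 at P21. Apart from P21 replicate 4 its ages lay in the same range, and its change went from 0.69 ± 0.69 to -0.12 ± 0.26 without it. Col11a2 read 269, 345, 258 and 322 at P1 and 501, 329, 493 and 1868 at P21. It did not pass with all arrays (1.04 ± 0.44, adjusted p = 0.0896), but passed without P21 replicate 4 (0.52 ± 0.17, adjusted p = 0.0450) and without P21 replicate 2 (1.34, adjusted p = 0.0417).

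**Figure D2:**
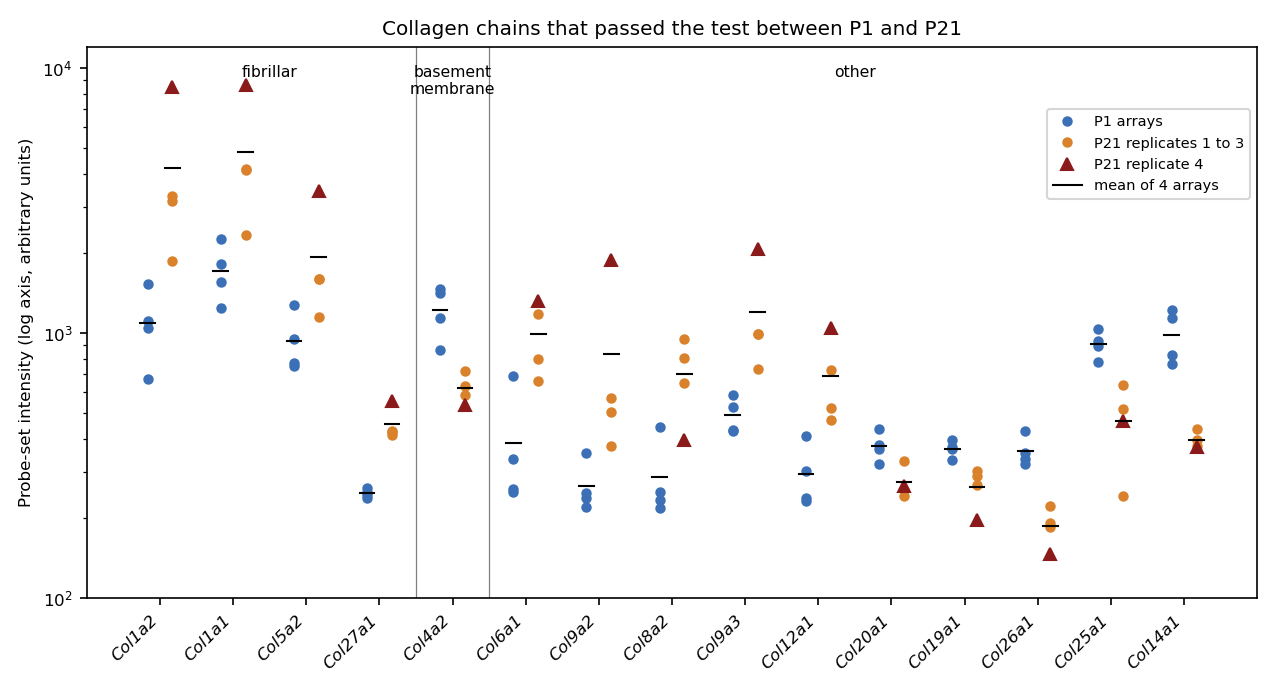
Intensity of the 15 chains that passed the test, on a logarithmic axis, with a point for each P1 array (left of each pair) and each P21 array (right), P21 replicate 4 as a triangle and the mean of 4 arrays as a bar. P21 replicate 4 read 8626 for Col1a1, 8464 for Col1a2 and 1895 for Col9a2, above every other array, but 396 for Col8a2, below the other P21 arrays.

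Basement membrane chains were few. Of 5 type IV chains on the array 3 were tested, with 1 fall and 2 that missed the threshold, where over all genes 22.0% rose and 17.4% fell. Col4a4 and Col4a6 were too dim to test. Col4a4 read between 92.3 and 184, and the brighter probe set of Col4a6 between 113 and 325.

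Col4a1 and Col4a2 join in the main type IV trimer of most basement membranes. Col4a2 read 1142, 861, 1422 and 1467 at P1 and 633, 586, 722 and 537 at P21. Every P21 array lay below every P1 array, and P21 replicate 4 was the dimmest. It fell by 0.94 ± 0.17 (1.92-fold lower, adjusted p = 0.00213), and the adjusted p lay between 0.000405 and 0.00806 over its 17 alternatives. Col4a1 read 688, 530.2, 1017 and 976 at P1 and 994, 999.7, 832 and 844 at P21. P1 replicate 3 read above every P21 array, P1 replicate 4 within their range, and P1 replicates 1 and 2 below it. It did not pass (0.23 ± 0.20, adjusted p = 0.388), nor did its other probe set (0.22 ± 0.29, adjusted p = 0.584). The difference between the changes of Col4a1 and Col4a2 was not tested.

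The start of Col4a1 is shown because the same stretch holds the start of Col4a2, which is read the other way. In GRCr8 only 76 bases separate the starts, and capitals mark them in the window chr16:84885347-84885646, plus strand.
Col4a1: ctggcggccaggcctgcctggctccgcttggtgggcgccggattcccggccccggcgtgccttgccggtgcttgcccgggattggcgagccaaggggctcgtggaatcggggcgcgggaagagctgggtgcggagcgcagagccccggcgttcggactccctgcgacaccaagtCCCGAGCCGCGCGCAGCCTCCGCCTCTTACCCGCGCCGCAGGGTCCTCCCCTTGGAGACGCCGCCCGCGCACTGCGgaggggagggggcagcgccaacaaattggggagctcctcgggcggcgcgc
Col4a5 and Col4a6 also lie head to head, on chromosome X, with 1263 bases between them.

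Col4a5, a chain of the type IV network of kidney and other specialised basement membranes, read 525, 714, 662 and 744 at P1 and 1138, 1612, 986 and 501 at P21. P21 replicates 1 to 3 lay above all P1 arrays, and P21 replicate 4 lay below them. With 8 arrays it did not pass (0.56 ± 0.30, adjusted p = 0.169). Without P21 replicate 4 it passed as higher (0.88 ± 0.19, adjusted p = 0.00688).

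Col4a2, Col4a5 and several vessel markers had their lowest P21 reading on replicate 4, as did 16.5% of all genes tested. Others did not. Col4a1 and the pericyte marker Pdgfrb were lowest on P21 replicate 3 (832 and 1606), and Rgs5 on P21 replicate 1 (468). Pecam1, an endothelial adhesion protein, read 352, 345, 369 and 325 at P1 and 628, 854, 525 and 344 at P21 and rose (0.66 ± 0.23, adjusted p = 0.0440). Cldn5 of endothelial tight junctions read 1503, 1155, 2049 and 2232 at P1 and 2404, 3042, 1799 and 1408 at P21 and did not pass (0.30 ± 0.27, adjusted p = 0.407). Of 15 endothelial markers tested, 7 rose and 0 fell (9 and 0 without P21 replicate 4), led by Tek (0.83 ± 0.22) and Flt1 (0.75 ± 0.16). Over all genes 22.0% rose and 17.4% fell, or 19.0% and 16.4% without that array. Summed over the 17 on the array, endothelial intensity was 9878 to 13356 at P1 and 13242 to 20472 at P21, the lowest P21 sum being that of replicate 4, and 0 of the 17 stayed under the filter level on every array. Their part in the type IV results was not tested, and in captured pools fewer cells of a type and less RNA per cell cannot be told apart.

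Of the 25 chains in neither class 16 were tested. There were 5 rises and 5 falls (31.2% each, against 22.0% and 17.4% of all genes), and 6 chains missed the threshold. The median of the 16 was 0.17, or 0.00 without P21 replicate 4, against 0.05 and 0.03 over all genes. The rises were Col6a1, Col8a2, Col9a2, Col9a3 and Col12a1, and the falls Col14a1, Col19a1, Col20a1, Col25a1 and Col26a1.

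Col6a1 encodes a chain of type VI collagen, the beaded filament next to cells in muscle, nerve and vessels. It read 251, 259, 334 and 689 at P1 and 658, 1177, 800.0 and 1321 at P21. P1 replicate 4 stood above the other P1 arrays and above P21 replicate 1, so the ages overlapped. It rose by 1.40 ± 0.33 (adjusted p = 0.00777), or 1.24 ± 0.34 without P21 replicate 4. Col6a3 read 377, 608, 649 and 842 at P1 and 659, 1604, 621 and 1810.2 at P21 and did not pass (0.80 ± 0.38, adjusted p = 0.128), although its adjusted p was 0.0298 with the replicate block. P21 replicates 2 and 4 were its high arrays. The brighter probe set of Col6a2 read 146 to 311, Col6a5 147 to 283 and Col6a6 32.8 to 101.

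Col8a2 encodes a network-forming chain known from the cornea and from vessels. It read 219.5, 235, 251 and 442 at P1 and 649, 949.6, 808 and 396 at P21, with P21 replicate 4 below P1 replicate 4 and the rest apart. The rise was 1.23 ± 0.29 (adjusted p = 0.00763) and became 1.47 ± 0.24 without P21 replicate 4 (adjusted p = 0.00170). Col8a1 was not tested, since 3 arrays exceeded the filter level, and read 233, 69.8, 141 and 241 at P1 and 141, 1159, 399 and 12.3 at P21, highest on P21 replicate 2. Col8a2 and Col8a1 thus had their lowest P21 reading on the array where the cartilage chains had their highest.

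Type IX collagen coats the fibrils of cartilage, and its chains Col9a2 and Col9a3 rose. Col9a2 read 248, 352, 239 and 222 at P1 and 569, 375, 503 and 1895 at P21. The ages did not overlap, and P21 replicate 4 was far above the rest. The change was 1.32 ± 0.42 (adjusted p = 0.0341), or 0.83 ± 0.19 without that array (adjusted p = 0.00955). Its call was lost without P1 replicate 1, 3 or 4 or P21 replicate 1 (adjusted p = 0.0683, 0.0710, 0.0789 and 0.0531). Col9a3 read 429, 584, 429 and 525 at P1 and 992, 731, 995 and 2069 at P21. Its ages did not overlap either, and it rose by 1.16 ± 0.28 (adjusted p = 0.00857), or 0.86 ± 0.16 without P21 replicate 4. Col9a1 exceeded the filter level on 1 array, P21 replicate 4, at 1361, with 104 to 186 elsewhere. Col10a1, the type X chain of growth-plate cartilage, read 103, 111, 73.0 and 71.4 at P1 and 579.6, 188, 114 and 2565 at P21, a range in which P21 replicates 1 and 4 exceeded the filter level.

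**Figure D3:**
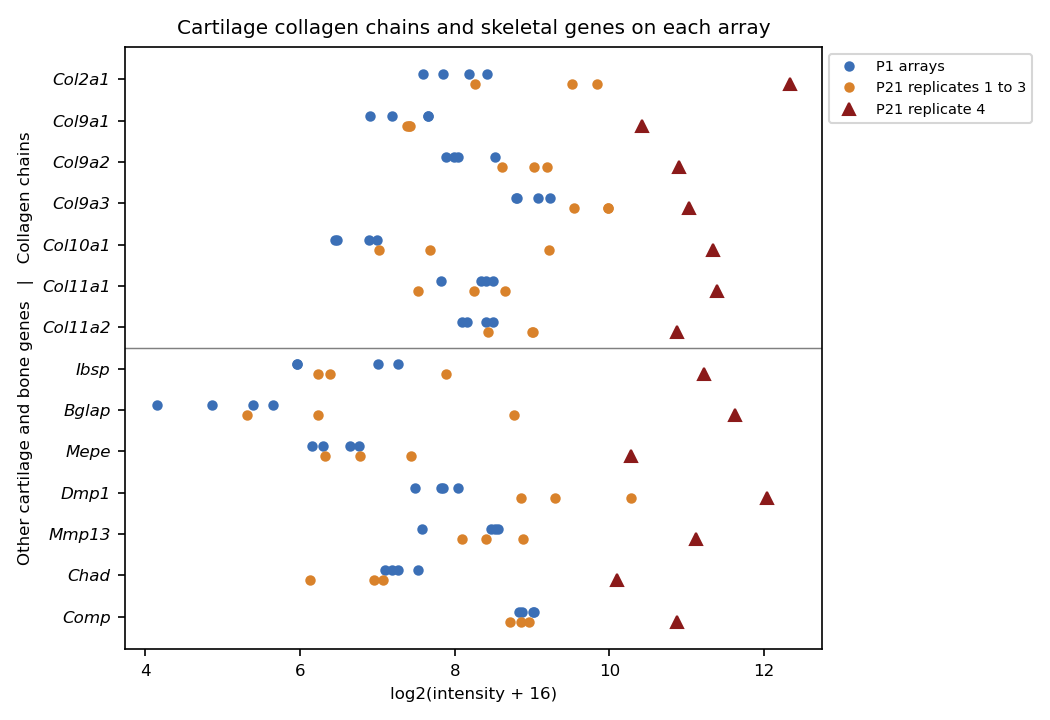
Cartilage collagen chains (above the line; Col2a1 by its probe set that passed) and other cartilage and bone genes (below) on each array, as log2(intensity + 16), with P1 arrays, P21 replicates 1 to 3 and P21 replicate 4 marked. P21 replicate 4 is the rightmost point in every row, with intensities of 5151 for Col2a1, 2565 for Col10a1 and 4207 for Dmp1.

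Col12a1, Col14a1, Col19a1 and Col20a1 are fibril-associated chains, which decorate fibrils without forming them. Col12a1 read 301, 239, 233 and 408 at P1 and 519.8, 725, 472 and 1049 at P21, without overlap, and rose by 1.15 ± 0.26 (adjusted p = 0.00646). Its rise was 0.93 ± 0.22 without P21 replicate 4 (adjusted p = 0.0106). For another of its probe sets the change was -0.04 ± 0.12 (adjusted p = 0.803), so the rise was seen on 1 of its 2 tested probe sets. Col14a1 went the other way and read 1221, 1137, 764 and 830.0 at P1 and 434, 376, 397 and 372 at P21. The P21 arrays lay close together and all below P1, and the fall was the largest of the tested chains (-1.26 ± 0.16, 2.40-fold lower, adjusted p = 0.000194). Its other probe set fell too (-0.66 ± 0.18, adjusted p = 0.0188). Col19a1, which in the mouse is made by neurons and bears on synapse formation, fell from 366 ± 26.0 to 264 ± 46.8 (change -0.46 ± 0.13, adjusted p = 0.0217, 0.0612 without P1 replicate 4). Col20a1 fell from 375 ± 47.7 to 273 ± 38.7 (change -0.43 ± 0.13, adjusted p = 0.0221), and its adjusted p was 0.0594 when P1 replicate 1 was left out, and 0.0610 and 0.0540 in the absence of P21 replicate 2 or 3. The ages of Col20a1 overlapped (P1 replicate 3 at 320, P21 replicate 1 at 330). Both falls were near the filter level, which 2 P21 arrays exceeded for Col19a1 and 1 for Col20a1. Col16a1 and Col22a1 did not pass (-0.08 and 0.15).

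Col25a1 encodes a membrane-spanning chain made by neurons, which motor axons of the mouse need to innervate muscle. It read 1036, 895, 934 and 780.1 at P1 and 637, 242, 518 and 466 at P21. Every P21 array lay below every P1 array, with P21 replicate 2 lowest. The fall was 1.02 ± 0.25 on the log2 scale (2.02-fold lower, adjusted p = 0.0103), 1.04 ± 0.28 without P21 replicate 4, and its adjusted p stayed between 0.00293 and 0.0294 over its 17 alternatives. Of the other membrane-spanning chains, Col13a1 did not pass (0.45 ± 0.18, adjusted p = 0.0796, 0.0432 with the replicate block), and Col17a1 (at most 56.5) and Col23a1 (79.0 to 241) were too dim to test.

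Col26a1 read 322, 352, 427 and 335 at P1 and 222, 192, 186 and 147 at P21. All P21 intensities were under the filter level, so the fall is a bound of at least 1.28-fold (fitted change -0.89 ± 0.14, adjusted p = 0.000702). Col15a1 and Col18a1, chains of the basement membrane zone whose ends are released as endostatin-like fragments, did not pass (0.19 ± 0.21 and -0.21 ± 0.20). A second probe set of Col15a1 read 52.4, 50.4, 28.9 and 73.9 at P1 and 223, 327, 219.9 and 245 at P21, without overlap but above the filter level on 1 array, and was not tested. Col7a1, the anchoring fibril chain of skin, read 102 to 187 and was too dim to test.

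**Figure D4:**
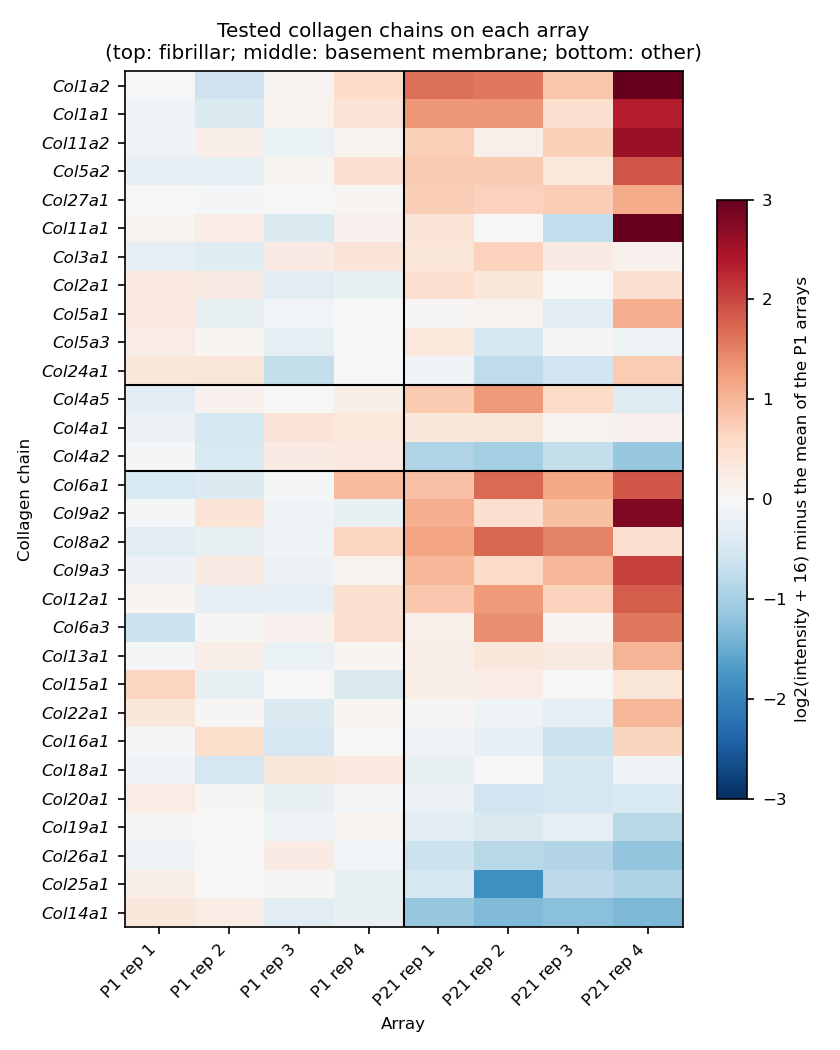
Tested chains (rows, grouped into fibrillar, basement membrane and other) on each array (columns), coloured by log2(intensity + 16) minus the mean of the P1 arrays, red for brighter and blue for dimmer. P21 replicate 4 was the brightest of the P21 arrays for 8 of 11 fibrillar chains and for 0 of 3 basement membrane chains, and the falls of Col14a1, Col25a1, Col26a1 and Col4a2 appear on all 4 P21 arrays.

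The P21 arrays differed in which chains they read brightly. P21 replicate 4 was the brightest of the 4 for 17 of 30 chains, against 33.9% of all genes tested, namely 8 of 11 fibrillar, 0 of 3 basement membrane and 9 of 16 other chains. P21 replicate 3 was the dimmest for 13 of 30 chains, against 14.7% of all genes. Of 9 chains tested by more than 1 probe set, 0 had probe sets called in opposed directions, 4 had every probe set called the same way (Col1a1, Col1a2, Col5a2 and Col14a1), and Col2a1 and Col12a1 had 1 called and 1 not.

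Genes that make, modify and bind collagen were set beside the chains. Of 47 tested in 5 lists, 19 rose and 4 fell, where over all genes 22.0% rose and 17.4% fell. Of 18 genes of chain modification and folding, 6 rose and 2 fell, the other 10 falling short of the threshold (median 0.27, against 0.05 over all genes). Without P21 replicate 4, 6 rose and 1 fell, where over all genes 19.0% rose and 16.4% fell. The median of this list was then 0.10, against 0.03 over all genes. The collagen galactosyltransferases, which attach sugar to hydroxylysine, parted. Colgalt2 read 839.8, 679.9, 741 and 743 at P1 and 1574, 1632, 1590.3 and 1648 at P21 and rose by 1.09 ± 0.09 (adjusted p = 1.74e-05). Colgalt1 read 2793, 2087, 3035 and 2996 at P1 and 1580.1, 1462, 1753 and 1723 at P21 and fell by 0.73 ± 0.13 (adjusted p = 0.00215). Neither gene overlapped between the ages, and the spread of Colgalt2 within each age was small. Fkbp14, a folding enzyme of the endoplasmic reticulum, rose by 0.90 ± 0.16. The prolyl hydroxylase genes P4ha1 (0.78 ± 0.15) and P4ha2 (0.62 ± 0.16) and Serpinh1 (0.66 ± 0.14), the collagen chaperone Hsp47, rose too. P4hb, the protein disulfide isomerase that completes the prolyl hydroxylase, fell (-0.41 ± 0.14, adjusted p = 0.0473, 0.116 without P21 replicate 4 and 0.0540 with the replicate block).

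Of 5 genes of procollagen cleavage and cross-linking tested, 3 rose and 0 fell (median 0.51), where over all genes 22.0% rose and 17.4% fell. Pcolce, which enhances removal of the procollagen C-terminus, read 227, 199.5, 253 and 319 at P1 and 742, 1003, 534 and 3253 at P21, with the peak on P21 replicate 4 as for type I chains. It rose by 2.05 ± 0.46 (adjusted p = 0.00671), or 1.52 ± 0.22 without that array. Lox, lysyl oxidase, which cross-links fibrils, read 447, 599, 521 and 679 at P1 and 976, 2301, 1099 and 2060.3 at P21 and rose by 1.41 ± 0.28 (adjusted p = 0.00302). Tgm2 rose by 0.46. All 6 tested collagen-binding small leucine-rich proteoglycans rose (median 1.67, or 1.40 without P21 replicate 4), and 5 of the 11 on the array did not pass the filter. Dcn, decorin, read 458, 618, 832 and 762 at P1 and 2507, 2985, 2112 and 2869 at P21 and rose by 1.97 ± 0.19, Ogn by 1.89 ± 0.41 and Lum, lumican, by 1.38 ± 0.27. Among the P21 arrays Dcn was brightest on replicate 2, not on replicate 4.

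Of 4 collagen receptor genes tested, Ddr1, a receptor tyrosine kinase that collagen activates, rose from 1267 ± 90.7 to 2509 ± 192 (change 0.98 ± 0.10, adjusted p = 5.25e-05). Ddr2, Itgb1 and Adgrg1 did not pass (median of the 4 genes 0.23). Of 14 other basement membrane components, 3 rose and 2 fell (median 0.12), against 22.0% and 17.4% of all genes. Lamb2, a laminin chain of mature vessels and synapses, read 667, 526, 832 and 933 at P1 and 1797, 2178, 1853 and 1837 at P21 and rose by 1.38 ± 0.17, and Lamc3 rose by 0.99 ± 0.19. Pxdn, peroxidasin, which cross-links type IV collagen, read 1575, 1403, 1304 and 1555 at P1 and 814, 728, 605 and 869.7 at P21 and fell by 0.95 ± 0.13 (adjusted p = 0.000332), the same direction as Col4a2. Sparc rose by 0.93 and Agrn, agrin, fell (-0.62).

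**Figure D5:**
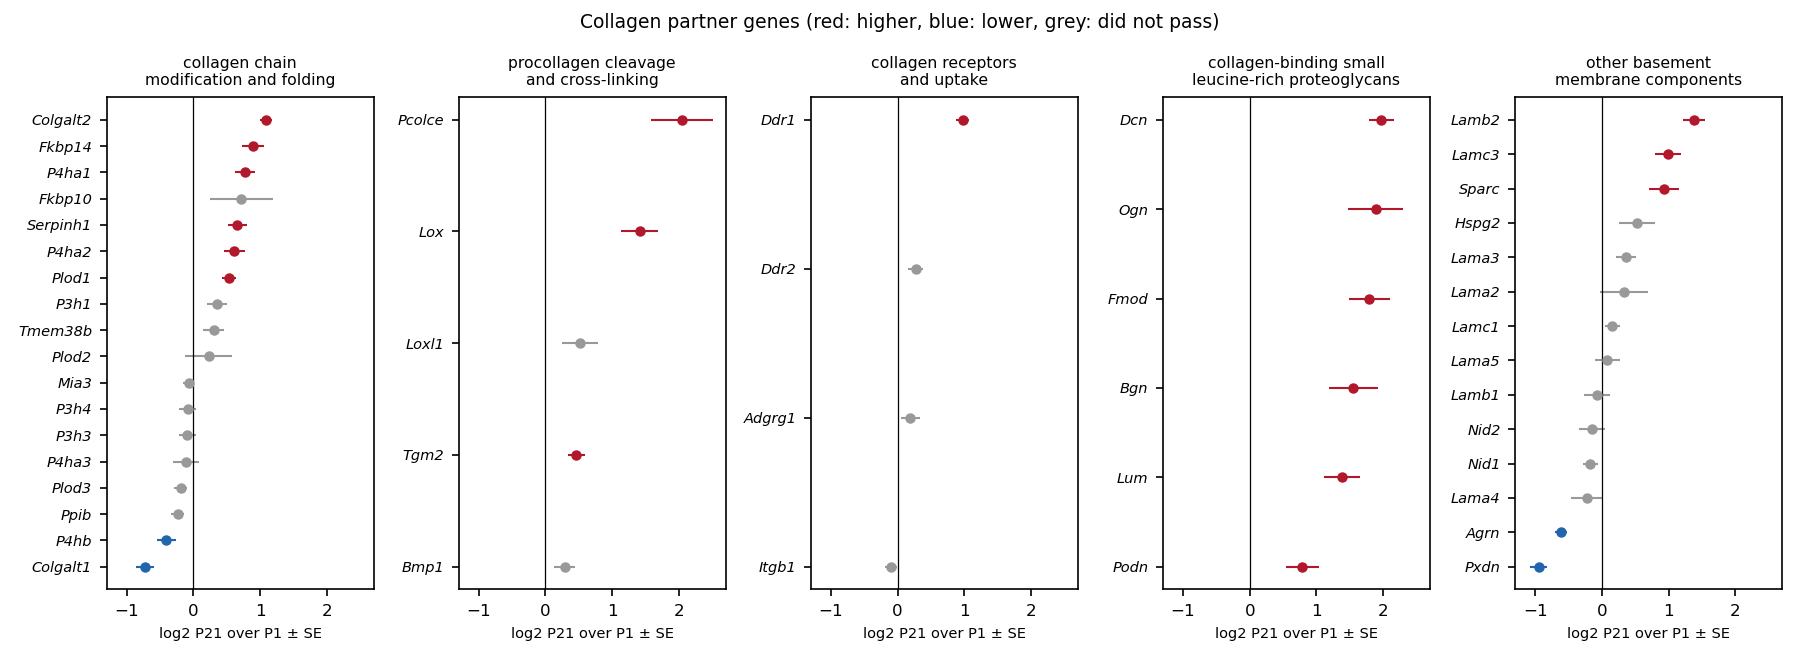
Change of each tested partner gene, as log2 of P21 over P1 with its standard error, in 5 lists, with rises in red, falls in blue and genes that did not pass in grey. All 6 small leucine-rich proteoglycans lie to the right of 0, while basement membrane components lie on both sides, from 1.38 for Lamb2 to -0.95 for Pxdn.

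Markers of cells that make collagen moved with age as well, and the shares over all genes, 22.0% higher and 17.4% lower, apply to every list here too. Of 14 fibroblast and meningeal markers tested, 9 rose and 0 fell (median 0.85), or 10 and 0 without P21 replicate 4. Ptgds (3.82 ± 0.84) and Mgp (2.28 ± 0.27) led. Ptgds overlapped between the ages, since P1 replicate 4 read 1055 and P21 replicate 4 821, and its change was 4.51 ± 0.73 without the latter. With the replicate block the rises of Islr and Mfap5 were lost (adjusted p = 0.0558 and 0.0599). The summed intensity of all 20 was 15854 to 23670 at P1 and 27128 to 40629 at P21, with 3 of them under the filter level on every array, and P21 replicate 4 held the lowest P21 sum. Dcn and Lum belong to this list and to the proteoglycans. Of 11 pericyte and smooth muscle markers, 4 rose and 0 fell (median 0.27), with Vtn (1.56 ± 0.42) and Rgs5 (1.02 ± 0.15) leading and Pdgfrb not passing (0.64 ± 0.38). Their sums were 7287 to 9530 and 9829 to 14965, with 2 of 16 under the filter level throughout. Of 10 Schwann cell markers, 6 rose and 1 fell (median 0.62, sums 19236 to 21788 and 24119 to 29262), among them Pmp2 (2.00), Prx (1.33) and, falling, Ngfr (-3.83). The Schwann cell list is not exclusive, since it shares Mal with the oligodendrocyte and myelin list and S100b with the astrocyte list. The part of these cells in the collagen results was not tested.

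The remaining marker lists describe the pools, against 22.0% of all genes higher and 17.4% lower. Of 11 motoneuron markers, 2 rose (Chat, 1.32 ± 0.14, and Isl2, 0.33, the latter with adjusted p = 0.115 without P21 replicate 4), 1 fell (Isl1, -1.67) and 8 did not pass, and Slc18a3, the acetylcholine vesicle transporter, read 4103 ± 644 and 3769.5 ± 1033. Of 16 oligodendrocyte and myelin markers 13 rose and 0 fell (Mobp at least 17.2-fold, Opalin at least 4.94-fold, Mbp 2.09). Of 14 astrocyte markers 9 rose, or 7 without P21 replicate 4, and 2 fell (Gjb6 3.72, Agt 2.08 and Slc1a3 -1.35), and of 10 microglial and macrophage markers 8 rose and 0 fell (Lyz2 4.01, Cd74 at least 1.78-fold). The sum of the 19 microglial and macrophage markers on the array was 13971 on P21 replicate 4 and at most 10314.5 on the other P21 arrays. Without P21 replicate 4 again 8 rose and 0 fell, with a median of 0.87 rather than 1.12, and Lyz2 rose by 3.75. Of 5 granulocyte and bone marrow genes, a list chosen after the values were seen, 3 rose and 0 fell (S100a9 at least 4.73-fold and Defa5 at least 4.50-fold, or 3.07 and 3.32 without P21 replicate 4), and the sum of the 8 on the array was 14552.5 on P21 replicate 4 against at most 5032 on any other array. Of the 9 cartilage and bone genes tested 3 rose and 0 fell, with Dmp1 at least 4.16-fold and Spp1 by 2.10. Without P21 replicate 4 there were 3 rises and 1 fall (Hapln1, -0.85 ± 0.12), and the bound for Dmp1 was 2.67-fold. Spp1 read 3361 to 3696 over the P21 arrays, whereas Dmp1 read 449 to 4207 with its peak on P21 replicate 4.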

How the data were processed

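Per the labels' protocols, 1500 to 2000 cells were captured per array from sections of 12 µm, and 50 ng of RNA was amplified in 2 rounds primed at the poly(A) tail, which favours the 3′ ends of transcripts. The authors deposited a linear intensity for each probe set; the probe summary, background correction and scaling are not given in the sources used here. Array medians were 323 to 416. Depth is not defined for arrays, and their number limits the precision. Probe sets were named by the platform annotation; all 58 gene identifiers were found in a current table of GRCr8, and 0 symbols changed. Promoter windows and gene positions are RefSeq's on GRCr8, which held windows for 32 chains.

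Negative intensities were replaced by 0, 16 was added, and the log2 was fitted in R 4.3.3 with limma 3.58.1 (lmFit, eBayes), P21 against P1 over 8 arrays with no covariate. Probe sets over an array's 40th percentile in 4 or more hybridisations were kept (19155), and p-values were adjusted over all of them. Where all 4 intensities of an age were under that level, a change is a bound, the brighter mean against the mean level of the percentile. Chains were put into classes by type number. The fit was tested on simulated data. Members, lists and tests were chosen with earlier results of these data known. Text names, by rule, with all array values the 12 called chains of largest change and the 2 brightest of each class, and from each list the 2 called genes of largest change in the prevailing direction, 1 in the other, and fixed markers; other genes were named after their values were seen.

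Deviations of same-numbered arrays from their age mean correlated at 0.514, 0.321, 0.558 and 0.150 for replicates 1 to 4. The numbers, with the litters of the design text, were therefore used to pair the arrays in the replicate block. The block is an alternative, and the p-values of the main fit ignore any pairing. The labels do not say that a number is a litter. Pairs of unlike number reached 0.366 (P1 replicate 4 with P21 replicate 3, above the 0.150 of its own number) and 0.262 (P1 replicate 1 with P21 replicate 2). The labels call the pools biological replicates. Alternatives were other scalings, pseudocounts, filters, a replicate block, another variance model, the mean of probe sets, and leaving out each array.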

Additional observations from a re-analysis of the deposited data

Results flagged for a closer look

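In 84 sets of 4 arrays (each collagen probe set at each age, where at least 1 array exceeded the filter level), 12 held an array that stood far from the rest, its gap to the nearest other array exceeding Dixon's critical share of the set's range. For independent normal values about 1 in 20 sets would hold such an array. That rate is no yardstick here, since the sets share arrays and the intensities are linear. Some sets, such as that of Col9a1 at P21, also entered only through the distant array. P21 replicate 4 was the distant array in 9 of the 12 sets and P1 replicate 4 in 3.

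On P21 replicate 4 the distant readings were 5151 for a probe set of Col2a1 (nearest array 901), 3118 for Col5a2 (nearest 1042), 1361 for Col9a1 (nearest 155) and 1895 for Col9a2 (nearest 569). They were 2659.8 and 378 for 2 probe sets of Col11a1 (nearest 386 and 53.7), 1868 for Col11a2 (nearest 501), 1023 for Col13a1 (nearest 631) and 555 for Col27a1 (nearest 429). On P1 replicate 4 they were 1642 for a probe set of Col1a1 (nearest 1142), 817 for Col5a2 (nearest 519) and 442 for Col8a2 (nearest 251).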

How the results depend on the processing

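The count of 15 called chains (9 higher, 6 lower) lay between 14 and 17 over the settings other than a stricter filter, the replicate block among them (17, with Col6a3 and Col13a1 added), and between 13 and 17 without each array in turn. Without a filter, where 41 chains were tested, it was 14 (7 higher, 7 lower), beside 7226 of 31042 probe sets called. With the filter at the 60th percentile, where 15 chains were tested, it was 8 (5 higher, 3 lower), beside 5866 of 12966 probe sets. The count of called probe sets was 7329 of 19155. It lay between 5866 of 12966 with the stricter filter and 8805 of 19155 with the replicate block. Centring each array on its median changed the split from 3990 higher and 3339 lower to 2631 and 4184 and shifted the overall probe set median from 0.07 to -0.07, while the chain counts stayed at 9 and 6. Called partner genes numbered 23 of 47, 17 with the stricter filter, 26 with the replicate block, and 20 to 25 without each array in turn. Col9a2 was not called with quantile normalization (adjusted p = 0.0539) or without a filter (0.0630), nor Col5a2 without a filter (0.0641), and Col15a1 was called without P1 replicate 1 (0.0465). Col2a1 was called with the mean of its probe sets (1.15, adjusted p = 0.0383).

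Changes of sign touched chains that had not passed. Col18a1 was 0.0087 with the mean of its probe sets. Leaving out single arrays, changes lay between -0.19 and 0.070 for Col5a3, -0.33 and 0.11 for Col16a1, -0.48 and 0.028 for Col24a1, -0.12 and 1.17 for Col11a1, -0.13 and 0.30 for Col22a1 and -0.066 and 0.41 for Col5a1. The replicate block changed no other call among the probe sets that stand for the chains.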

Other observations

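On P21 replicate 4, genes of bone-resorbing cells stood out beside the cartilage chains. Acp5, tartrate-resistant acid phosphatase, read 3034 there and 109 to 299 on the other arrays, and Ctsk, cathepsin K, which cleaves type I collagen, read 2549 there and 213 to 557 elsewhere. P21 replicate 3 had a different set of 25 probe sets at least 4-fold above every other array, and 0 of them were collagen chains. Genes of the liver led it, namely Alb, albumin, with Fgg, Apoc3 and Serpinc1. The bearing of these genes on the collagen results was not tested.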
